A study of Homo sapiens with 12 samples.

Results

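The 37 genes described here encode kinetochore, spindle checkpoint and chromosomal passenger proteins, and were chosen by symbol from a list of 37 names, each of which matched 1 of the 55773 entries of the count table. By role they are 12 genes of the CENP-A nucleosome and the constitutive centromere network, 2 of the fibrous corona, 4 of the NDC80 complex, 4 of the MIS12 complex with ZWINT, 2 of the RZZ complex, 6 of the spindle checkpoint, 3 of the SKA complex and 4 of the chromosomal passenger complex. All 37 passed the filter on low counts, which kept 15691 genes for testing. The cells were RBE, an established human cholangiocarcinoma (bile duct cancer) line, in 4 groups of 3 poly(A) RNA-seq libraries. The groups vehicle and vehicle_Nutlin were kept in DMSO vehicle, which the labels give as 5 µM, for 22 days, and the groups AG120 and AG120_Nutlin in 5 µM AG-120 for 22 days. AG-120, or ivosidenib, is an inhibitor of the mutant IDH1 enzyme. The groups vehicle_Nutlin and AG120_Nutlin then received 5 µM Nutlin, which frees p53 from MDM2, for 72 hours. For the groups vehicle and AG120 the sample titles name DMSO in the place of Nutlin. All groups are 1 cell line, and the labels do not say whether the replicates were separate cultures, so p-values measure only the spread between these libraries, which may be technical.

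The kinetochore is the protein assembly that ties a chromosome to the spindle. Nucleosomes that carry the histone variant CENP-A mark the centromere, the constitutive centromere network sits on them through the cell cycle, and the MIS12 and NDC80 complexes form the outer layer that binds microtubules. The spindle checkpoint proteins gather at kinetochores without attached microtubules and hold back anaphase, and the chromosomal passenger complex, whose kinase is Aurora B, releases wrong attachments. Many of these genes are transcribed mainly in late cell cycle phases. In bulk samples, fewer dividing cells and less RNA per dividing cell cannot be told apart.

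The libraries held 16840161 to 27499433 counts each (median 19221201). MDM2 and CDKN1A, both p53 targets, checked the Nutlin labels: MDM2 stood at 141.6 to 193.9 CPM (counts per fixed number of counts, scaled between libraries by TMM) in the libraries without Nutlin and at 2107 to 3484 CPM with it. Marker genes of bile duct epithelium were above 0 in every group, with summed levels of 3024 to 3166 CPM in vehicle, 3447 to 4426 in vehicle_Nutlin and 3470 to 4296 in AG120 libraries. They summed to 2554 to 2640 CPM in AG120_Nutlin libraries, below every other group, and the part of this in the comparison of AG-120 under Nutlin was not tested. Hepatocyte markers summed to at most 2.52 CPM and endothelial markers to at most 0.999 CPM. The 5 fibroblast markers summed to 36.0 to 43.4 CPM without Nutlin and to 2.41 to 5.29 CPM with it, with DCN and LUM at 0 in all groups, and the part of such a shift in the results was not tested. The 3 libraries vehicle_Nutlin replicates 2 and 3 and AG120 replicate 1 stood apart in an earlier analysis of these counts, and results that they decide are also given without them.

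After Nutlin most of the kinetochore and checkpoint mRNAs fell in vehicle cells, from 1.29-fold for CENPP to 168-fold for SPC25, which rests on few counts, while MIS12, NSL1, CENPT and ZW10 did not pass and MAD1L1 rose 2.06-fold. The levels of the 37 genes summed to between 1913 and 2228 CPM in the libraries without Nutlin and to between 429 and 504.1 CPM in those with it. In vehicle cells 32 of the 37 were lower and 1 was higher at an adjusted p of at most 0.05 (edgeR quasi-likelihood test, Benjamini-Hochberg over all genes), where 27.1% of all tested genes were lower and 26.8% higher. At least 10-fold falls were called for 21 of the 37 genes, against 2.19% of all genes. The median log2 fold change of the 37 was -3.89, beside -0.02 over all genes, and the values ran from -7.39 for SPC25 to 1.05 for MAD1L1. In the same comparison, 32 genes had all 3 Nutlin libraries below all 3 vehicle libraries, against 30.9% of all genes.

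**Figure D1:**
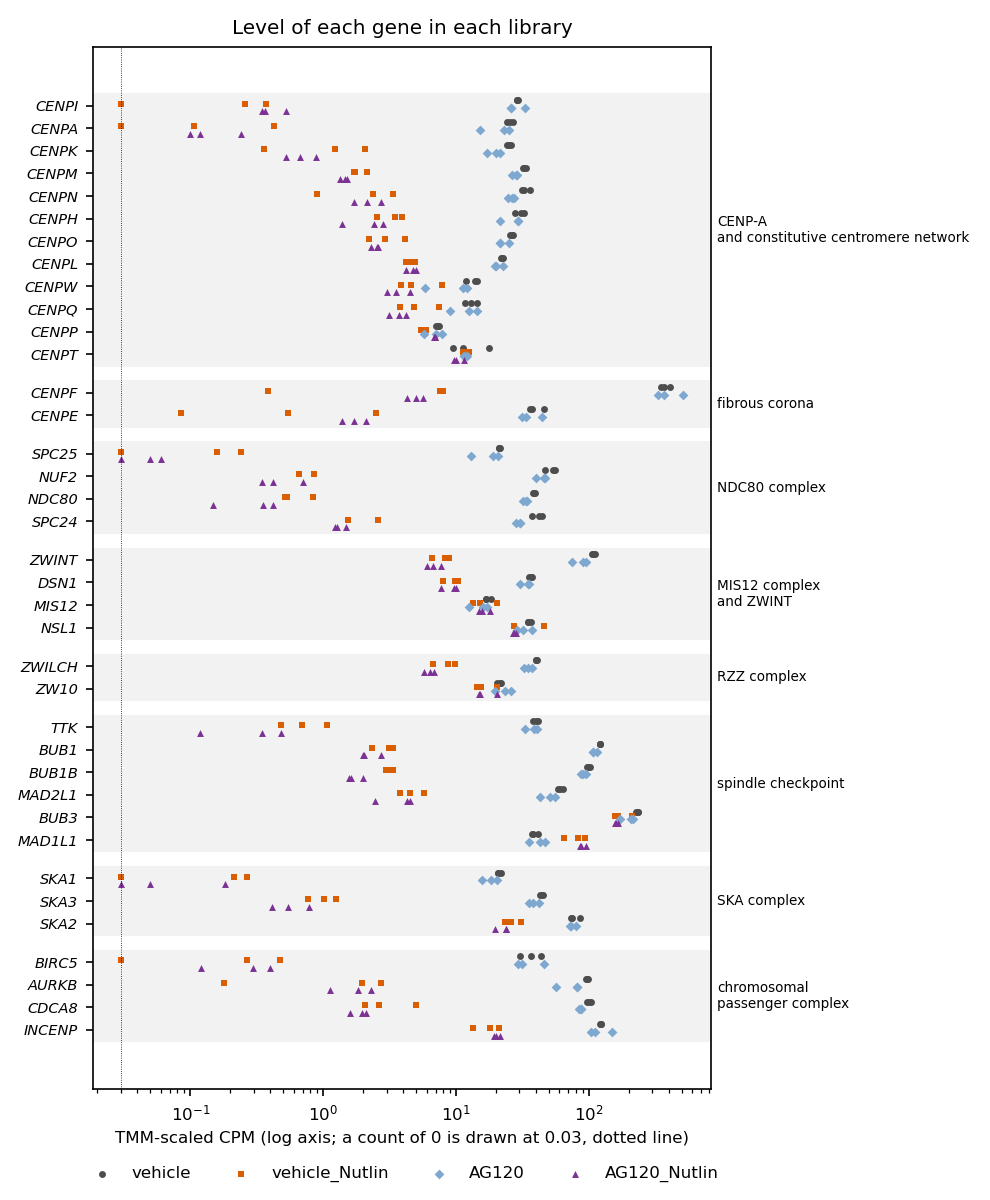
TMM-scaled CPM (log axis) of each of the 37 genes in each of the 12 libraries, 1 symbol per library, with colour and shape for the group and shaded bands for the roles; a count of 0 is drawn on the dotted line at 0.03. Genes at the top of a band, such as CENPI and SPC25, have a wide gap between libraries with and without Nutlin. Genes at the bottom vary: CENPT and NSL1 have little or no gap, SPC24 and INCENP still have one, and MAD1L1 is higher with Nutlin.

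The promoters of these genes are shown here because the genes moved together and because the proximal promoter of many mitotic genes is known to hold a cell cycle homology region (CHR), a short element that the DREAM and MMB complexes bind, often beside CCAAT boxes bound by NF-Y. Among the 37 genes, 31 had a promoter in the RefSeq table (build GRCh38.p14), which holds 250 bases before and 50 after each transcript start. BIRC5, BUB3, CENPH, CENPL, CENPM and TTK are named only. The motifs searched, on both strands, were TTTGAA (CHR), TTCGAA (a CHR variant), CCAAT, which reads ATTGG on the other strand, and the E2F-type site GCGGGAA. In the sequences below, which are the 120 bases that end just before the start, on the strand of the gene, capitals mark matches on either strand. A CHR on the other strand reads TTCAAA, as in ZWINT, and an E2F-type site on the other strand reads TTCCCGC. The first 5 belong to genes that fell and hold a CHR match close to the start, and the last 2 to genes that rose or did not pass. They were picked for these traits, and genes with large falls but no such match are named after the sequences. ZWINT and MIS12 have 2 promoters each, of which the first is printed. The shares given after the sequences count a match in any promoter of a gene.
BUB1B (chr15:40160949-40161068, plus strand): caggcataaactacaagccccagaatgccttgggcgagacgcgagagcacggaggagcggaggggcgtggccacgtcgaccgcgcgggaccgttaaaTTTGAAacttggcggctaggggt
CDCA8 (chr1:37692396-37692515, plus strand): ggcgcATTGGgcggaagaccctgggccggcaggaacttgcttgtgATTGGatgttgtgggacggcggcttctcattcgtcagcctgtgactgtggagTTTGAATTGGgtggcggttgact
INCENP (chr11:62123891-62124010, plus strand): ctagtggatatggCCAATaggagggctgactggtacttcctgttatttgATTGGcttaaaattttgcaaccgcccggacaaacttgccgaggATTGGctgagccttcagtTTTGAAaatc
CENPA (chr2:26785936-26786055, plus strand): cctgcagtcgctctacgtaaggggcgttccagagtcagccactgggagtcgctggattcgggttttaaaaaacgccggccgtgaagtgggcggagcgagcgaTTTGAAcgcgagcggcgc
ZWINT (chr10:56361260-56361379, minus strand): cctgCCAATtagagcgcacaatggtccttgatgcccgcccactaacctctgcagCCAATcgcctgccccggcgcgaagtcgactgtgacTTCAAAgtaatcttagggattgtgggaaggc
MAD1L1 (chr7:2232946-2233065, minus strand): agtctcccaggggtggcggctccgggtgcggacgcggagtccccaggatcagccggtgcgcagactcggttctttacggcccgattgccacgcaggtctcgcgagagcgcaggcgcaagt
MIS12 (chr17:5486254-5486373, plus strand): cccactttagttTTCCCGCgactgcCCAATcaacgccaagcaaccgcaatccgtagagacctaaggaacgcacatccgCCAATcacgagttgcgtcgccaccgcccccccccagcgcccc

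In BUB1B and CDCA8 the TTTGAA began 23 bases before the start, in CENPA 18, in ZWINT 31 and in INCENP 10. In the other ZWINT promoter, which is not printed, it began 17 bases before the start. The CDCA8 match shares 1 base with a CCAAT match. Within 50 bases of the start, TTTGAA was present in 14 of the 26 members with a promoter that were lower after Nutlin in vehicle cells (53.8%) and in 0 of the 5 that were not. The share among all tested genes with a promoter was 4.3% (433 of 10064). Among members with a log2 fold change of -3 or below, 13 of 19 had it, and among those above -3, 1 of 12, which is INCENP at -2.81. Those at -3 or below without it were CENPI (-7.0), AURKB (-5.81), BUB1 (-5.34), CENPE (-5.29), SPC24 (-4.48) and CENPK (-4.30). Over the whole window the share was 48.4% of members (15 of 31) and 13.7% of all tested genes. In that window TTCGAA was in 3 of 31 members (9.68%, against 2.33%), CCAAT in 19 of 31 (61.3%, against 43%) and GCGGGAA in 6 of 31 (19.4%, against 12.6%). CCAAT was in 57.9% of members at -3 or below and in 66.7% of those above. GCGGGAA was in 21.1% and 16.7% of the same sets, and in 15.4% of the members that were lower against 40% (2 of 5) of those that were not. The motifs were counted, and the cut at -3 was set, after the expression values were known. No test was made, so a link of a motif to the size of the fall was not tested. A match is a description of letters only.

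**Figure D2:**
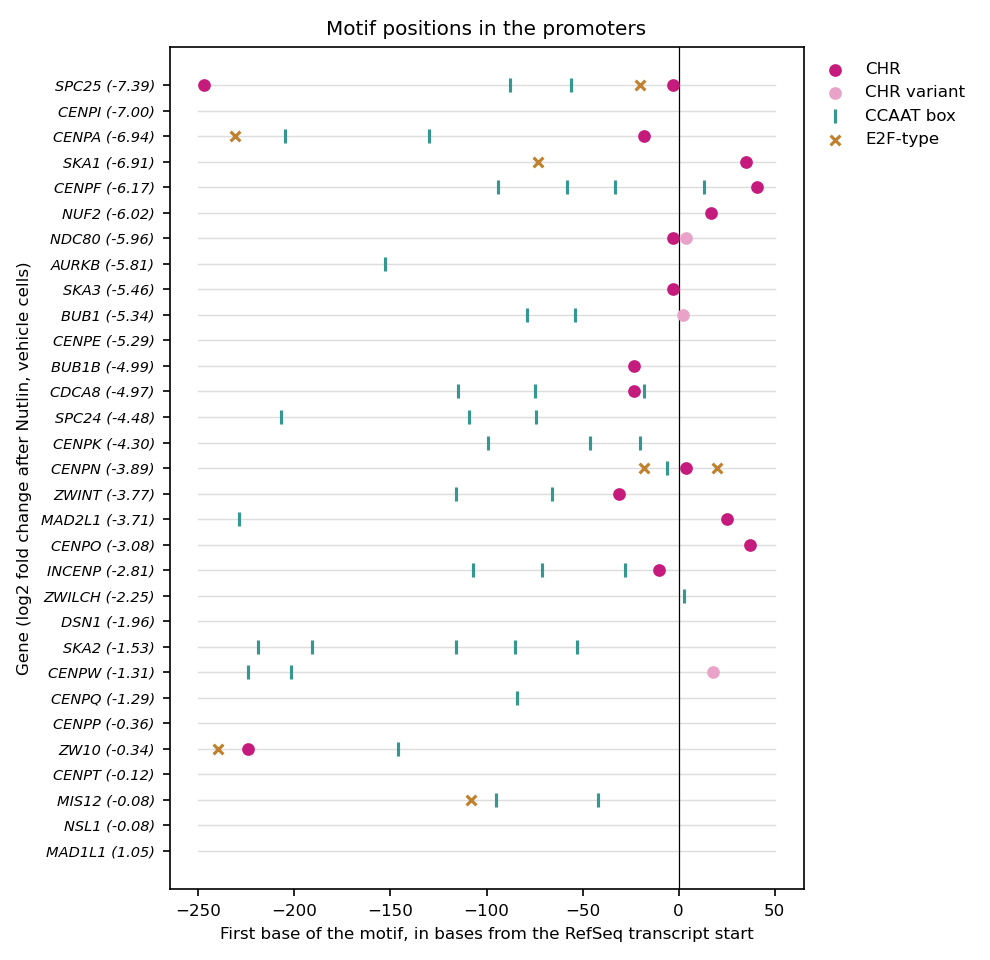
Position of each motif match in the promoters of the 31 members with one, ordered from the lowest to the highest log2 fold change after Nutlin in vehicle cells (in brackets); the x axis is the distance in bases of the first base of the match from the RefSeq transcript start, and the first promoter of each gene is drawn. CHR matches crowd around the start in the upper rows, and the 5 genes from ZW10 down, the CENPT row included, have none within 50 bases of it.

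Genes of the centromere itself split widely. Of the 12 genes of the CENP-A nucleosome and its network, 11 were lower after Nutlin in vehicle cells and 10 of these at least 2-fold (13.9% of all genes), with a median of -3.14. CENPI, a subunit of the CENP-H/I/K group, stood at 28.7, 28.7 and 29 CPM in the vehicle libraries and at 0.371, 0 and 0.257 CPM in the vehicle_Nutlin libraries, the latter from 7, 0 and 6 counts. The levels did not overlap, and the log2 fold change was -7.0 ± 0.46 (SE, edgeR adjusted p = 2.043e-09). CENPA, the histone variant that defines the centromere, went from 24.1, 27.0 and 25.3 CPM to 0.106, 0 and 0.428 CPM (-6.94 ± 0.59). Most of what was left of CENPA was in vehicle_Nutlin replicate 3, and without that library the log2 fold change was -8.68.

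CENPK and CENPH, the other members of the CENP-H/I/K group, stood at log2 fold changes of -4.30 and -3.2, and CENPK was at -4.95 without vehicle_Nutlin replicate 3 and at -3.91 without replicate 2. CENPM (-4.12), CENPN (-3.89), which reads the CENP-A nucleosome, CENPO (-3.08) and CENPL (-2.28) fell too. CENPQ (-1.29 ± 0.24) and CENPW (-1.31 ± 0.29), a histone-fold protein, fell less. CENPW stood at 13.8, 14.4 and 11.9 CPM in vehicle and at 3.87, 7.85 and 4.57 CPM in vehicle_Nutlin libraries, so even its highest Nutlin library lay below its lowest vehicle library.

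CENPT, the DNA-bound protein that recruits the NDC80 complex from the centromere side, did not pass. It stood at 11.2, 9.45 and 17.7 CPM in vehicle and at 11.3, 11.6 and 12.5 CPM in vehicle_Nutlin libraries, and all 3 Nutlin values lay inside the vehicle range. Its log2 fold change was -0.12 with a 95% interval from -0.53 to 0.29, and it turned to 0.20 without vehicle replicate 3. CENPP was the weakest call, at 7.07, 7.41 and 7.36 CPM against 5.45, 5.63 and 5.90 CPM (-0.36 ± 0.14, adjusted p = 0.047). Most alternatives put its adjusted p above 0.05, up to 0.186 with no filter and down to 0.0154 with library totals. CENPT overlaps NUTF2 and THAP11, and CENPP overlaps IPPK and NOL8. The strand setting of the counting is not given in the sources used here, so reads of such neighbours cannot be told apart.

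Both genes of the fibrous corona fell. CENPF, a large coiled-coil protein made from late S phase on, had the highest CPM of all 37 genes in vehicle, at 369, 346.2 and 408.8 CPM. It stood at 7.57, 8.03 and 0.385 CPM in the vehicle_Nutlin libraries (-6.17 ± 0.53). CENPE, a kinesin motor that carries chromosomes to the spindle equator, went from 37, 35.8 and 45.8 CPM to 2.49, 0.539 and 0.0855 CPM (-5.29 ± 0.55). In both genes vehicle_Nutlin replicate 3 was the lowest library, by more than 10-fold for CENPF. The CENPE value depends on single libraries: it was -7.11 without vehicle_Nutlin replicate 1, -4.67 without replicate 3 and -4.01 with the 3 libraries set apart left out. Their transcripts of 10307 and 8612 bases are among the longest of the 37.

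All 4 genes of the NDC80 complex, the microtubule-binding rod of the outer kinetochore, fell at least 10-fold. SPC25 stood at 21.3, 21.2 and 20.9 CPM in vehicle and at 0.159, 0.24 and 0 CPM in vehicle_Nutlin libraries, from 3, 4 and 0 counts (-7.39 ± 0.63, adjusted p = 7.333e-09). The SPC25 value was -8.09 without vehicle_Nutlin replicate 2 and -6.71 without replicate 3. NUF2 (-6.02 ± 0.20) and NDC80 (-5.96 ± 0.22), which pair in the microtubule-binding end of the rod, fell by nearly the same amount. SPC24, the direct partner of SPC25, fell least, from 37.5, 42.4 and 44.5 CPM to 1.54, 2.58 and 1.54 CPM (-4.48 ± 0.17). Per length, the 4 genes started at like levels in vehicle, between 15.6 and 26.4 CPM per kb of transcript. The pair SPC24 and SPC25 then came apart: the library with the highest ratio had 56.8 SPC25 counts per 100 SPC24 counts in vehicle, and 10.3 in vehicle_Nutlin.

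The MIS12 complex, the platform that joins the inner centromere to the NDC80 rod, was divided. MIS12 stood at 16.7, 18.2 and 16.8 CPM in vehicle and at 15.1, 13.4 and 20.3 CPM in vehicle_Nutlin libraries. NSL1 stood at 35.0, 36.4 and 34.8 CPM and at 27.2, 27.4 and 46.1 CPM. In both the groups overlapped, with vehicle_Nutlin replicate 3 above every vehicle library, and the log2 fold changes of -0.08 ± 0.16 and -0.08 ± 0.18 did not pass. The 95% intervals ran from -0.43 to 0.28 for MIS12 and from -0.46 to 0.31 for NSL1, so a fall of the size seen in the NDC80 genes lay outside them. Without vehicle_Nutlin replicate 3, NSL1 was lower (-0.38, adjusted p = 0.005579), while its adjusted p was 0.7762 and 0.818 without replicates 1 and 2. NSL1 was lower with voom sample weights too (-0.34, adjusted p = 0.008865). Its log2 fold change was -0.4023 with the 3 libraries set apart left out.

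DSN1, which binds both of these proteins and is a target of Aurora B, fell from 35.6, 36.4 and 37.4 CPM to 8, 10.3 and 9.83 CPM (-1.96 ± 0.13). ZWINT, which links the outer kinetochore to the RZZ complex, fell from 105.8, 107.7 and 111.2 CPM to 8.90, 6.53 and 8.29 CPM (-3.77 ± 0.13, adjusted p = 2.834e-10). Against MIS12, DSN1 dropped from between 199.7 and 223 counts per 100 MIS12 counts in vehicle to between 48.4 and 76.7 in vehicle_Nutlin libraries.

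The RZZ complex, which brings dynein and the checkpoint proteins MAD1 and MAD2 to the kinetochore, was uneven as well. ZWILCH went from 39.8, 40 and 40.6 CPM to 8.74, 6.65 and 9.83 CPM (-2.25 ± 0.13). ZW10, which also acts in vesicle traffic between Golgi and endoplasmic reticulum, stood at 20.4, 22.0 and 21.5 CPM and at 14.3, 15.5 and 20.5 CPM (-0.34 ± 0.16, adjusted p = 0.097). Only vehicle_Nutlin replicate 3 reached the vehicle range of ZW10, and without that library ZW10 was lower (-0.52, adjusted p = 0.007957; 0.006311 to 0.2979 over all alternatives).

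Among the 6 spindle checkpoint genes 5 fell and 1 rose. TTK, or MPS1, the kinase that starts checkpoint signalling, went from 39.7, 41.5 and 38.1 CPM to 0.688, 0.479 and 1.07 CPM (-5.68 ± 0.26). The kinase BUB1 stood at 120.2, 122.1 and 120.3 CPM in vehicle and at 3.12, 2.34 and 3.38 CPM in vehicle_Nutlin libraries (-5.34 ± 0.13). BUB1B, or BUBR1, the part of the mitotic checkpoint complex that holds CDC20, fell by 4.99 ± 0.11 on the log2 scale, with the smallest adjusted p of the 37 genes (9.133e-12). MAD2L1, or MAD2, the protein that changes fold to bind CDC20, fell from 60.8, 64.0 and 58.4 CPM to 3.81, 5.69 and 4.49 CPM (-3.71 ± 0.19).

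BUB3 and MAD1L1, the binding partners of these proteins, did not follow them. BUB3, which carries BUB1 and BUB1B to the kinetochore, stood at 235.7, 234.3 and 227.3 CPM in vehicle and at 164, 157.5 and 212.3 CPM in vehicle_Nutlin libraries. The groups did not overlap, but the fall was small (-0.39 ± 0.12, adjusted p = 0.017). It was not called without vehicle replicate 1 or 2, without vehicle_Nutlin replicate 1 or 2, or with only both of these groups in the fit (adjusted p = 0.05046 to 0.06929). The fall was called in 16 of the 21 alternatives, and its log2 fold change ran from -0.5385 to -0.302 over all 21. BUB1 counts per 100 BUB3 counts went from 51 to 52.9 in vehicle to 1.48 to 1.90 in vehicle_Nutlin libraries.

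MAD1L1, or MAD1, anchors MAD2 at unattached kinetochores and at nuclear pores in interphase. It was the sole gene of the 37 that rose, from 41.6, 37.3 and 37.9 CPM to 82.5, 93.9 and 65.0 CPM (1.05 ± 0.14, adjusted p = 3.062e-05). Every Nutlin library lay above every vehicle library. Vehicle libraries held 146.1 to 171.4 MAD2L1 counts per 100 MAD1L1 counts, and vehicle_Nutlin libraries 4.62 to 6.91. The pairs BUB1 with BUB3, MAD2L1 with MAD1L1 and DSN1 with MIS12 were chosen after their values were seen.

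**Figure D3:**
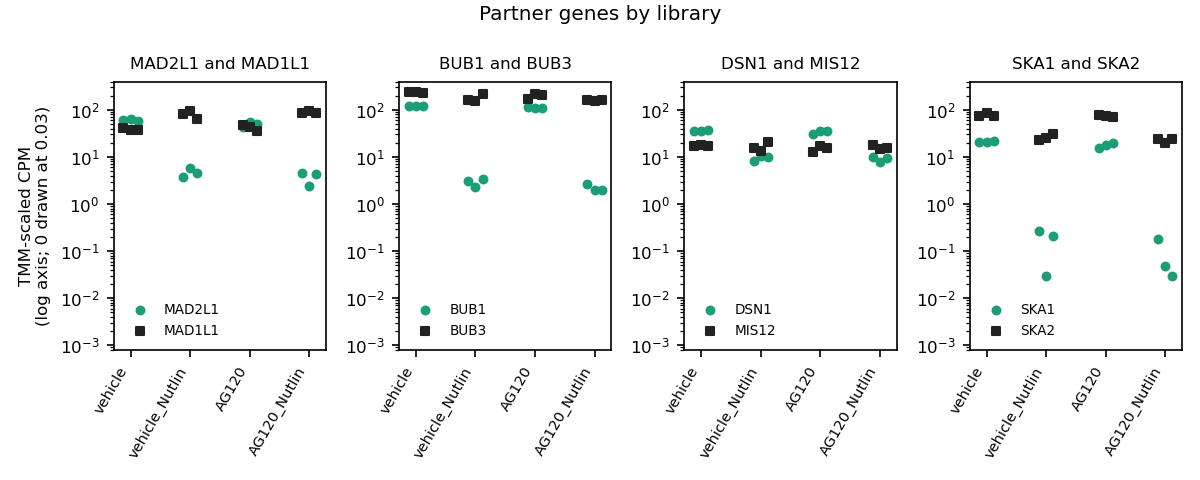
TMM-scaled CPM (log axis, a count of 0 drawn at 0.03) of 4 pairs of partner genes in the 12 libraries, with 1 point per library and the 4 groups along the x axis. MAD2L1, BUB1, DSN1 and SKA1 drop after Nutlin in both kinds of cells, while MAD1L1 is higher, MIS12 overlaps its level without Nutlin, and BUB3 and SKA2 fall less.

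In the SKA complex, which keeps kinetochores on the ends of shrinking microtubules, all 3 genes fell. SKA1 went from 20.8, 20.7 and 21.6 CPM to 0.265, 0 and 0.214 CPM, from 5, 0 and 5 counts (-6.91 ± 0.54), and SKA3 fell by 5.46 ± 0.19. SKA2 kept more of its level, at 73.1, 85.3 and 74.1 CPM against 23.4, 25.8 and 30.9 CPM (-1.53 ± 0.12). A pseudogene, SKA2P1, held up to 161 counts in a library, against at least 394 for SKA2, so some SKA2 reads could be shared with it.

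All 4 genes of the chromosomal passenger complex fell as well. BIRC5, or survivin, which brings the complex to centromeres, went from 30.4, 43.9 and 36.7 CPM to 0.265, 0 and 0.47 CPM (-7.07 ± 0.56). The log2 fold change was -7.99 without vehicle_Nutlin replicate 3. AURKB, the kinase of the complex, had the highest level per length of the 37 genes in vehicle, at 78.4 ± 1.41 CPM per kb (SD, n = 3), and fell by 5.81 ± 0.42 on the log2 scale. Its vehicle_Nutlin libraries held 1.96, 0.18 and 2.74 CPM, with replicate 2 lowest, and the AURKB log2 fold change was -6.43 without replicate 3 and -5.34 without replicate 2. CDCA8, or borealin, fell by 4.97 ± 0.22. INCENP, the scaffold that activates Aurora B, fell least, from 122.2, 120.7 and 123.1 CPM to 18.1, 21.0 and 13.3 CPM (-2.81 ± 0.16).

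**Figure D4:**
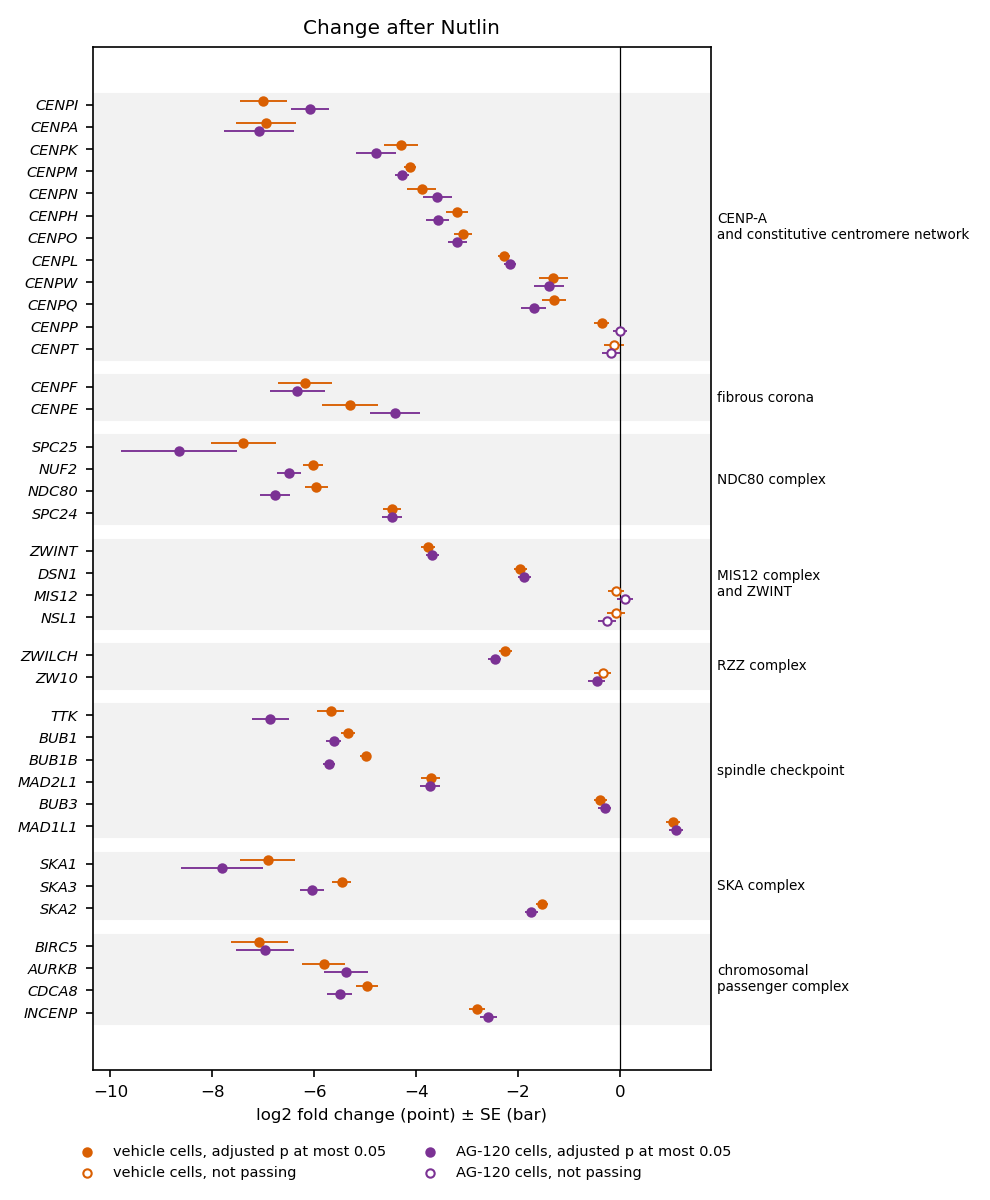
Log2 fold change after Nutlin (point) with its SE (bar) for each of the 37 genes in vehicle cells and in AG-120 cells; filled points passed an adjusted p of 0.05 and open points did not. In each role except the fibrous corona and NDC80 complex, at least 1 gene lies above -3, and MAD1L1 alone lies clearly right of 0.

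Cells kept in AG-120 gave a response of the same kind. After Nutlin 32 of the 37 genes were lower and 1 higher in AG-120 cells, where 28.8% of all tested genes were lower and 27.0% higher. At least 10-fold falls were called for 22 genes (2.33% of all genes), and the median was -3.73, beside 0.00 over all genes. MAD1L1 rose again (1.10 ± 0.14), from 46.9, 42.8 and 35.7 CPM to 87.5, 95.4 and 85.9 CPM. BUB3 was at the edge (-0.30 ± 0.12, adjusted p = 0.0493) and lost its call in 13 of 21 alternatives, with an adjusted p of up to 0.1891 without AG120 replicate 2. It kept its call in the other 8, and its log2 fold change ran from -0.4086 to -0.2281 over all 21.

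SPC25 had the lowest value in AG-120 cells too. It stood at 13.0, 18.8 and 20.6 CPM in AG120 and at 0.0603, 0.0493 and 0 CPM in AG120_Nutlin libraries. The latter are 2 counts over 3 libraries against 1077 without Nutlin, or 0.212% of the AG120 level with a 95% counting interval from 0.0256% to 0.767%. MIS12 (0.10), NSL1 (-0.25), CENPT (-0.17) and CENPP (0.00) did not pass in AG-120 cells. ZW10 did (-0.46 ± 0.17, adjusted p = 0.030), and its call ended without AG120 replicate 1 or 2 or AG120_Nutlin replicate 2 or 3 (adjusted p = 0.06831 to 0.1286). NSL1 was called lower in AG-120 cells with voom sample weights (-0.271, adjusted p = 0.002663) and without vehicle_Nutlin replicate 3 (-0.2615, adjusted p = 0.02268). Its log2 fold change there was -0.342 with the 3 libraries set apart left out. The difference between the responses did not pass for CENPP (0.36 ± 0.20, adjusted p = 0.53) or ZW10 (-0.12 ± 0.23, adjusted p = 0.87), so passing in 1 kind of cell was not shown to be a difference between them.

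No member passed for AG-120 by itself with all 12 libraries in edgeR, but some did under other settings. This comparison shares its vehicle libraries with the Nutlin response in vehicle cells. In cells without Nutlin 0 of the 37 passed, where 0% of all genes were lower and 0.0510% higher. At an unadjusted p under 0.05, 3 genes were lower and 0 higher, against 3.17% of all genes lower. With DESeq2 0 of the 37 passed, where 0.147% of all genes were lower and 0.542% higher. With voom sample weights 6 were lower, namely CDCA8, CENPN, CENPO, SKA3, SPC24 and ZWINT, where 2.03% of all genes were lower. With the 3 libraries set apart left out 6 were lower as well, namely AURKB, CDCA8, CENPN, INCENP, SPC24 and ZWINT, where 1.81% of all genes were lower.

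The signs still leaned one way. The log2 fold change was below 0 for 34 of the 37, against 49.8% of all genes, with CENPF, ZW10 and MAD1L1 above 0. The median was -0.19, and 19 genes had all AG120 libraries below all vehicle libraries, against 10.3% of all genes. Genes of 1 library are not independent, so no p is given for these counts. SPC24 had the smallest p: 37.5, 42.4 and 44.5 CPM in vehicle and 30.3, 28.4 and 30.5 CPM in AG120 libraries, without overlap (-0.48 ± 0.14, adjusted p = 0.35). ZWINT stood at 105.8, 107.7 and 111.2 CPM against 74.9, 90.4 and 95.8 CPM (-0.32 ± 0.12, adjusted p = 0.54), and CENPM at 31.7, 33.6 and 32.6 CPM against 26.5, 28.2 and 28.6 CPM (-0.23 ± 0.10, adjusted p = 0.60).

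AG120 replicate 1 stood apart in both directions. It was the highest AG120 library for CENPF (509.4, 365.4 and 331 CPM), INCENP (149.3, 110.6 and 102.8 CPM) and BIRC5 (45.9, 29.5 and 31.5 CPM). It was the lowest for CENPA (15.1, 25.1 and 23 CPM), CENPW (5.87, 11.3 and 12 CPM) and AURKB (56.1, 81.3 and 81.3 CPM).

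With Nutlin present, BUB1B was the sole gene of the 37 that passed between AG-120 and vehicle cells in the edgeR model of the 15691 kept genes. It stood at 3.34, 3.06 and 2.95 CPM in vehicle_Nutlin and at 1.57, 1.63 and 2.00 CPM in AG120_Nutlin libraries, without overlap (-0.85 ± 0.13, adjusted p = 0.006279). Of all genes 1.93% were lower and 0.433% higher here, so 1 lower gene of 37 was close to the share over all genes. The call ended with only both Nutlin groups in the fit (adjusted p = 0.2137) and without AG120_Nutlin replicate 2 (0.05362), and over the other alternatives the adjusted p ran from 0.001896 to 0.0481. TTK and CDCA8 were lower as well with DESeq2 (adjusted p = 0.04421 and 0.04849), where 4.08% of all genes were lower. The same 2 genes were lower in edgeR with no filter (adjusted p = 0.02249 and 0.01149), where 2.29% of all genes were lower. BUB1B overlaps PAK6, whose reads cannot be told apart without the strand.

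At an unadjusted p under 0.05, 10 of the 37 were lower and 0 higher with AG-120 under Nutlin, against 11.6% of all genes lower. The log2 fold change was below 0 for 29 of the 37 (50.6% of all genes), with a median of -0.31. TTK (-1.27 ± 0.41, adjusted p = 0.11), NDC80 (-1.03 ± 0.34, adjusted p = 0.14), SKA3 (-0.78 ± 0.27) and CDCA8 (-0.75 ± 0.27) were on the lower side, and CENPI (0.88 ± 0.56, adjusted p = 0.37) on the higher. Several of these rest on few counts: TTK had 8, 7 and 2 counts in the AG120_Nutlin libraries and NDC80 7, 3 and 6.

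**Figure D5:**
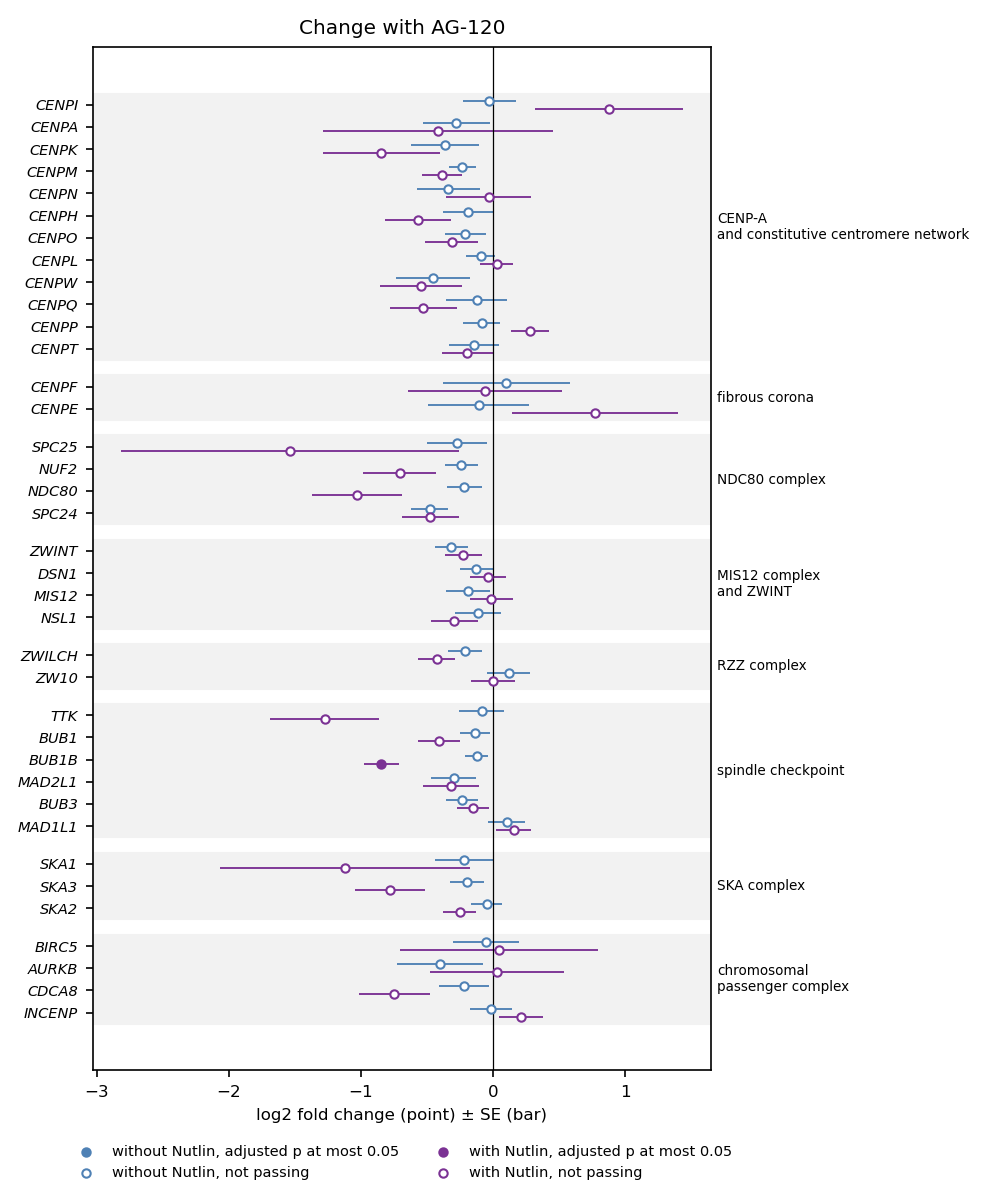
Log2 fold change with AG-120 (point) with its SE (bar) for each of the 37 genes, without and with Nutlin; filled points passed an adjusted p of 0.05 and open points did not. Without Nutlin nearly all points lie close to and left of 0, and with Nutlin BUB1B at -0.85 is the filled point, among wider bars for genes with few counts such as SPC25.

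The test of whether AG-120 changed the Nutlin response itself called 0 of the 37 genes, where 0.331% of all genes were lower and 0.0319% higher. At an unadjusted p under 0.05 there were 2, BUB1B and TTK, both lower (7.30% of all genes were lower). BUB1B fell further in AG-120 than in vehicle cells by 0.72 ± 0.16 on the log2 scale (adjusted p = 0.085). It passed without vehicle_Nutlin replicate 3 (adjusted p = 0.0375) and with the 3 libraries set apart left out (0.04642), and over the other alternatives its adjusted p ran from 0.07489 to 0.3185. The difference for TTK was -1.19 ± 0.45 (adjusted p = 0.33) and for NDC80 -0.81 ± 0.37 (adjusted p = 0.46). For SPC25 it was -1.27 with a 95% interval from -4.09 to 1.56, and a difference was not detectable at this depth.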

How the data were processed

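The authors deposited raw read counts per gene symbol for 12 libraries, and the values are whole numbers with a different total in each library. Partek, STAR, HTSeq, DESeq2 and the build hg19 are named, per the submitters' processing notes, and versions, roles and the strand setting are not given in the sources used here. Per the labels' protocols, libraries were poly(A)-selected and sequenced as paired reads. From these counts, genes were kept by filterByExpr and libraries scaled by TMM (trimmed means of M values). The 15691 kept genes entered 1 edgeR 4.0.16 quasi-likelihood model (R 4.3.3) over the 12 libraries, with 1 coefficient for each group. Comparisons were tested with glmQLFTest, with Benjamini-Hochberg adjustment over all genes of a comparison, and a call is an adjusted p of at most 0.05. Fits were tested on simulated data. Levels are TMM-scaled CPM, and CPM per kb uses the GENCODE principal transcript, so it depends on that choice of transcript. SEs are Wald errors of the model on the log2 scale. Counting intervals are at 95% and cover counting error only, because PCR reads with no stated molecular identifiers can be copies of 1 molecule.

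The members, role groups, 2 lists of other genes, the markers and the tests were chosen with earlier results of these data known. Every member is accounted for. The result of 1 marker list is not reported here. Values in every library are given for the most and the least negative gene of each role after Nutlin in vehicle cells and for the genes called, or with the smallest p, in the AG-120 comparisons, and further genes shown so were chosen after their values were seen. From the other lists up to 4 genes with the smallest adjusted p are named. Alternatives were DESeq2 1.42.0, its size factors, library totals, 2 other filters, voom (limma 3.58.1) with sample weights, the replicate number as a block, fits of 2 groups, and leaving out libraries.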

Additional observations from a re-analysis of the deposited data

How the results depend on the processing

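For the Nutlin responses, the counts of members called and their medians stayed within 1.5 times and within 1 SD under the alternatives run, except for the median in AG-120 cells. That median was -3.906 with voom weights. With 1 library left out it ran from -3.888 to -3.643, and it moved by more than 1 SD in 1 of these 12 fits. The cause was not tested. With the replicate number as a block, 31 members were lower and 1 higher in each kind of cell, against 32 and 1. Of all genes 26.8% were then lower and 25.6% higher in vehicle cells, and 27.8% and 26.6% in AG-120 cells. The numbers showed no pairing of the libraries. After the group mean of each gene was subtracted from its log CPM, same-numbered libraries of different groups correlated between -0.224 and 0.116. Of these 18 pairs, 1 was over 0.1, and the pairs with unlike numbers ran from -0.186 to 0.214. The block ended the calls of CENPP in vehicle cells (adjusted p = 0.07055) and BUB3 in AG-120 cells (adjusted p = 0.05954). Scaling by library totals moved the median of all genes after Nutlin in vehicle cells to -0.104.

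Signs near 0 turned. After Nutlin in vehicle cells CENPT was at 0.2042 without vehicle replicate 3, NSL1 at 0.06643 and 0.05388 without vehicle_Nutlin replicates 1 and 2, and MIS12 at 0.04546 without replicate 2. With 1 library left out, the lowest values were -0.2844 for CENPT, -0.3832 for NSL1 and -0.2789 for MIS12, and the highest those just given. In AG-120 cells CENPP was at -0.005756 with DESeq2, -0.004459 with its size factors, -0.02786 with library totals, -0.009325 with no filter and -0.004004 with 2 groups. It was at -0.00984, -0.107 and -0.0004231 without vehicle_Nutlin replicate 3, AG120 replicate 2 and AG120_Nutlin replicate 3, and at most 0.1107 with 1 library left out. MIS12 there was at -0.03557 with voom weights, -0.02634 (the lowest, with 0.2014 the highest) without AG120 replicate 1 and -0.03622 without the 3 libraries that stood apart.

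Members lower with AG-120 alone were 0 in all, 6 with voom weights, 6 without the 3 libraries and 0 to 1 with 1 library left out (SPC24 without vehicle_Nutlin replicate 3). Under Nutlin they were 1 in all, 3 with DESeq2 and 3 with no filter (both adding CDCA8 and TTK), 2 without the 3 libraries (adding CENPF) and 0 with 2 groups, where 30 members were tested. With 1 library left out, 0 to 3 were lower and 0 to 1 higher (CENPE without vehicle_Nutlin replicate 1) under Nutlin. For the interaction, 1 was lower without the 3 libraries and 0 to 1 with 1 library left out. No fit of 2 groups exists for the interaction. Over all genes, AG-120 alone called 0 lower and 8 higher, against 318 and 601 with voom weights. Under Nutlin it called 303 and 68, against 640 and 263 with DESeq2 and 15 and 0 with 2 groups, and the interaction called 52 and 5, against 452 and 185 without the 3 libraries. A fit without those libraries holds 1 vehicle_Nutlin library, assumed to vary like the other groups. The cause of these shifts was not tested. Genes at a few counts after Nutlin, such as SPC25, SKA1 and CENPA, are limited by depth.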

Other observations

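Other genes of the centromere and kinetochore that are not among the 37 were mostly lower after Nutlin too. The list of 36 such symbols held older and newer names of the same genes, such as CASC5 and KNL1. Of these symbols 26 were in the table and all 26 were tested. The symbols not found were other names of genes that were. After Nutlin in vehicle cells 19 were lower and 1 higher (27.1% and 26.8% of all genes), with a median log2 fold change of -2.28. HJURP, the chaperone that deposits CENP-A, was at -6.01 ± 0.19 (SE), CASC5, or KNL1, the scaffold that BUB1 and BUB3 bind, at -7.34 ± 0.32, the microtubule depolymerase KIF2C at -6.87 ± 0.25 and SGOL2, a protector of cohesion, at -3.70 ± 0.13. ITGB3BP, also known as CENPR, was the gene that was higher (0.55 ± 0.13, edgeR adjusted p = 0.002736) and is named after its value was seen. CENPC, which ties CENP-A nucleosomes to the MIS12 complex, was at -0.62 ± 0.15 and CENPB, which binds centromeric satellite DNA, at -0.21 ± 0.09 (adjusted p = 0.072), both also named after their values were seen. In AG-120 cells 18 of the 26 were lower and 2 higher after Nutlin (28.8% and 27.0% of all genes). AG-120 without Nutlin called 0 of them (0% of all genes lower and 0.0510% higher). At an unadjusted p under 0.05, 3 were lower there, against 3.17% of all genes. Under Nutlin AG-120 called 1 lower, HJURP (-1.41 ± 0.29, edgeR adjusted p = 0.02018), where 1.93% of all genes were lower.

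The targets and effectors of the checkpoint formed a second list, of which 25 of 26 were tested. After Nutlin in vehicle cells 15 were lower and 2 higher (27.1% and 26.8% of all genes), with a median of -0.80. CDC20, the activator that the checkpoint holds back, was at -5.92 ± 0.14, its substrate cyclin B1 (CCNB1) at -4.75 ± 0.11, TRIP13, which takes the checkpoint complex apart, at -3.67 ± 0.12 and UBE2S, which extends ubiquitin chains on substrates, at -2.65 ± 0.09. Core subunits of the anaphase promoting complex had values nearer 0: ANAPC1 was at -1.07 ± 0.13, CDC27 at -0.87 ± 0.12 and CDC23 at -0.57 ± 0.09, while ANAPC16 (0.48 ± 0.10) and ANAPC13 (0.54 ± 0.15) were higher. These core subunits were named after their values were seen. Under Nutlin, AG-120 called 3 genes of this list lower, namely UBE2C (-2.82 ± 0.61, adjusted p = 0.01326), TRIP13 (-0.97 ± 0.14, adjusted p = 0.004006) and CCNB1 (-0.52 ± 0.12, adjusted p = 0.04917), where 1.93% of all genes were lower.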
